A study of Mus musculus with 6 samples.

Results

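The genes described here are the heat shock proteins and their J-domain cochaperones in juvenile mouse testis. They are the 72 genes, of 18193 with a single symbol on the array, whose symbol starts with Hspa, Hspb, Hspd, Hspe, Hsph, Hsp90, Dnaja, Dnajb or Dnajc, and the brightest probe set on average over all arrays stood for each gene. The 72 genes have 174 probe sets. By their prefix they include Hspbp1 and Hspbap1, which encode proteins that bind heat shock proteins and are no chaperones of these families. RNA of whole testes at postnatal day 21 of Nxf2 knockout (KO) mice, 3 samples, was compared with that of wild-type (WT) mice, also 3 samples, each on 1 Affymetrix array. Nxf2 is an X-linked germ cell relative of the mRNA export receptor gene Nxf1. The sources used here give neither the strain, nor the kind of Nxf2 allele, nor the number of animals per sample, and p-values therefore measure only the spread between these samples.

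HSP70 proteins (Hspa genes) bind unfolded stretches of other proteins and release them in a cycle driven by ATP. J proteins (Dnaja, Dnajb and Dnajc genes) bring them substrates and trigger ATP hydrolysis, HSP110 proteins such as Hsph1 and Hspa4l help nucleotide exchange, HSP90 proteins act on later folding steps, and small heat shock proteins (Hspb genes) hold unfolded proteins without ATP. The testis is known for its own set of these genes: Hspa2 is the HSP70 of spermatocytes and is needed to complete meiosis, and Hspa1l and Dnajb3 are active in spermatids. The heat-inducible genes are turned on by heat shock factor 1, which binds heat shock elements, repeats of the unit GAA in alternating orientation.

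Promoter sequences of RefSeq on GRCm38.p6 were matched to 59 of the 72 genes, with 76 start sites. The sequences below are shown because they hold matches to the paired heat shock motif (GAANNTTC or TTCNNGAA) in genes whose values are given further on. These are the inducible Hspa1b and Hspa1a, the chaperonin gene Hspe1 and Dnajc27, a J protein gene that was lower in KO testes. Hspa1b is the stretch chr17:34959239-34959488 on the minus strand, Hspa1a is chr17:34972157-34972406 on the minus strand, Hspe1 is chr1:55088053-55088082 on the plus strand and Dnajc27 is chr12:4082324-4082573 on the plus strand. Each runs 5′ to 3′. Those of 250 bases end at the base before the start site, and the 30 bases of Hspe1 are centred on its matches. Capitals mark matches to GAANNTTC or TTCNNGAA and, in Dnajc27, also the cAMP response element TGACGTCA near the end.
Hspa1b: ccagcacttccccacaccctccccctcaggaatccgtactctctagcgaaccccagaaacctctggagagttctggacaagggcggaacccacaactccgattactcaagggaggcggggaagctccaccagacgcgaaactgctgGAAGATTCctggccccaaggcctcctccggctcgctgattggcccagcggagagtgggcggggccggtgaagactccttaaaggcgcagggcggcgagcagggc
Hspa1a: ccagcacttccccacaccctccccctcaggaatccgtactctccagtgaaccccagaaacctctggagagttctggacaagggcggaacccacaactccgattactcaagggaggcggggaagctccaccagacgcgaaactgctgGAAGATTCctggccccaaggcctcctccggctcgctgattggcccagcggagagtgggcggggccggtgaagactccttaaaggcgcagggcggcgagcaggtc
Hspe1: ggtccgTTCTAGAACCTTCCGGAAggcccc
Dnajc27: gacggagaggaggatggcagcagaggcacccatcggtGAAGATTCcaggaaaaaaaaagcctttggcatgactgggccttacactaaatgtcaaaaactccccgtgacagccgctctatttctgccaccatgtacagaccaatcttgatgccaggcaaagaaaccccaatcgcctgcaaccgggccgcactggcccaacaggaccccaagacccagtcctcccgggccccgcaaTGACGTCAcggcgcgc

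The windows of Hspa1a and Hspa1b were identical at 247 of 250 bases (98.8%), and both hold the match 104 bases before the start site. In Hspe1 there were 3 overlapping matches, which begin 89, 84 and 79 bases before its start site. The paired motif (GAANNTTC or TTCNNGAA, both strands, overlaps allowed) was found in the 250 bases before 16 of 76 start sites of these genes (21.1%), against 12.8% of all 32851 windows. The triple motif (GAANNTTCNNGAA or TTCNNGAANNTTC), which contains the paired motif, was found before 4 of the 76 start sites (5.26%), in Dnajb6, Hspd1 and Hspe1, against 0.466% of all windows. Hspd1 and Hspe1 are head-to-head neighbours on chromosome 1, so their windows are not independent. The cAMP response element TGACGTCA was found before 1 of the 76 start sites (1.32%), that of Dnajc27, against 1.55% of all windows. None of the 72 genes is X-linked, unlike Nxf2.

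The deposited median signal lay between 37.1 and 40.9 over the 6 arrays. The targeted gene Nxf2 had signals of 116, 106 and 131 in KO testes, against 374, 340.4 and 386 in WT testes. Its log2 fold change was -1.59 ± 0.0999 SE (limma, adjusted p = 0.000488). Of the 72 chaperone genes, 66 had a mean signal of at least 20.5 and were tested on log2(signal + 7). The other 6 (Hspa1l, Dnajb7, Dnajb8, Dnajc6, Dnajc22 and Hspb3) were too dim. Fold changes below are on that scale, which understates those of dim genes.

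Germ cell and some widely used J protein genes fell in KO testes, while the main housekeeping chaperones differed little between the genotypes. Of the 66 tested genes, 10 fell and 0 rose (limma, Benjamini-Hochberg adjusted p under 0.05). Taken over all genes by the same choice of probe set, 7.37% fell and 2.98% rose (10.3% in either direction), and 15.2% of the tested chaperone genes fell. At an unadjusted p under 0.05 there were 16 lower (24.2%) and 7 higher (10.6%) among the 66, against 16.4% lower and 18.5% higher among all genes. The 10 were Dnajb3, Dnajb13, Dnajc5b, Dnajc5g and Hspa4l among germ cell and testis-rich genes, Dnaja4, Dnajb2, Dnajc18 and Dnajc27 among those listed as ubiquitous, and the mitochondrial Dnajc28. Apart from Dnajc5b the falls were modest, between -0.69 and -0.26 on the log2 scale.

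The KO values lay all below the WT values in 20 tested genes (30.3%, against 18.3% of all genes) and all above in 7 (10.6%, against 21.5%). The median log2 fold change of the 66 was -0.041, against 0.037 over all 12971 tested genes, and 31 of the 66 lay within 0.1 of no change. The number of calls rested on WT replicate 1: without it 2 genes were called, Dnajb13 and Dnajc18, and over all probe sets 159 calls were left of 2024 (7.49% of the tested probe sets). Without any other array the number that fell stayed between 7 and 10.

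**Figure D1:**
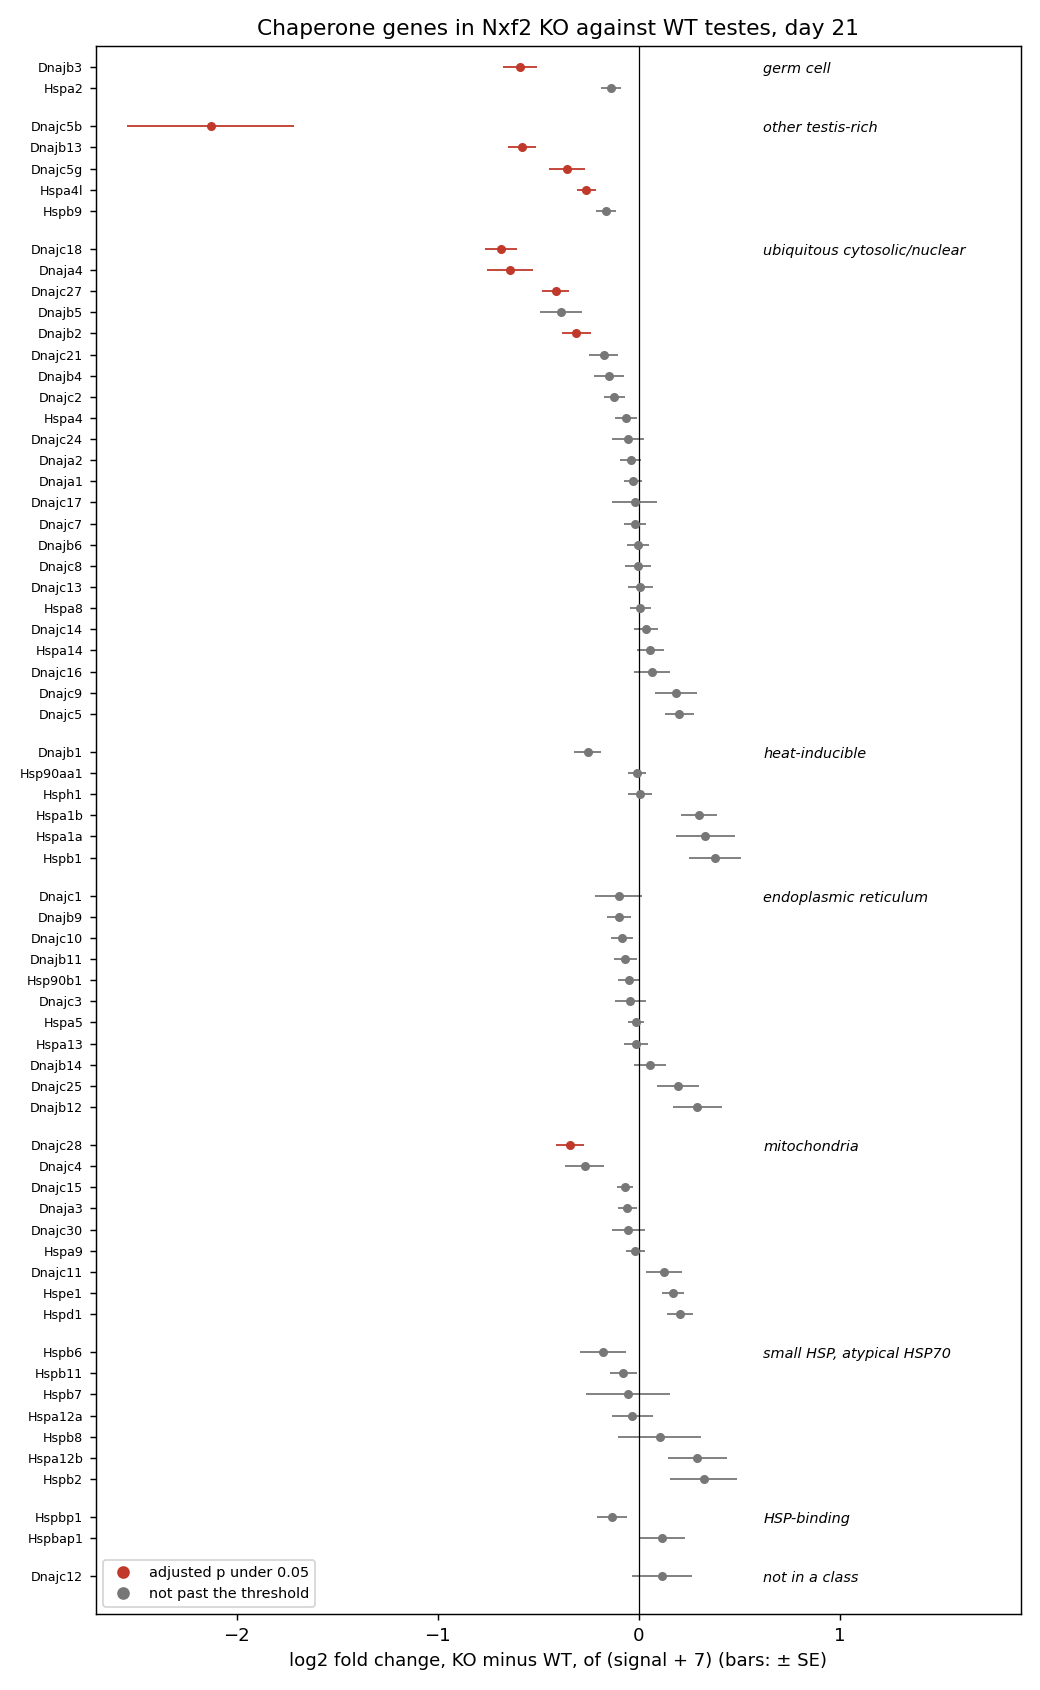
Log2 fold change (KO minus WT, of signal + 7) of the 66 tested chaperone genes, grouped by role, with bars of ± SE from limma (n = 3 arrays per genotype); red points passed an adjusted p of 0.05. The 10 red points all lie left of 0, and Dnajc5b at -2.13 lies apart from the others.

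Among the germ cell genes, Dnajb3 fell and Hspa2 did not pass the test. Dnajb3, whose J protein sits in spermatids, had signals of 331, 348 and 283 in KO testes, against 493, 475 and 483 in WT testes. The groups did not overlap, and the log2 fold change was -0.59 ± 0.083 SE (limma, adjusted p = 0.0063). Without WT replicate 1 its adjusted p was 0.0513.

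Hspa2 was a bright gene in both genotypes, with 952, 919 and 876 in KO testes and 991, 1039.7 and 996 in WT testes. Each KO value lay below each WT value, yet the difference was small (log2 fold change -0.14 ± 0.049 SE) and did not pass (adjusted p = 0.105). Hspa1l was near the lower end of the array's range, with 15.1, 14.9 and 14.0 in KO testes and 19.9, 16.9 and 22.3 in WT testes. It was below the dim limit and entered the fit without a filter alone, where its log2 fold change was -0.30 (adjusted p = 0.282).

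Each germ cell gene was then set against a ubiquitous relative within the same arrays. For Dnajb3 against Dnaja1, a cytosolic J protein gene, the difference between their log2 fold changes was -0.56. For Hspa2 against Hspa8, the constitutive HSP70, it was -0.15, and for the dim Hspa1l against Hspa8 it was -0.31. In all 3 comparisons the KO arrays lay on one side of the WT arrays. The exact permutation p was 0.1 in each (two-sided, 0.1 after adjustment over the 3), the smallest that 3 against 3 arrays can give.

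Of 7 other testis-rich genes 5 were bright enough to test. Of these 4 fell (80.0%, against 7.37% of all genes) and none rose (against 2.98%). The list was drawn up with earlier results of these data known, so this share is no independent evidence. Dnajc5b, of the cysteine string protein family, had 6.60, 5.60 and 23.1 in KO testes, against 76.0, 33.5 and 121 in WT testes (log2 fold change -2.13 ± 0.416 SE, adjusted p = 0.0181). It passed the dim filter through its WT values, its KO mean of 11.8 lying below the limit of 20.5, so a difference was built into its being tested. Its size depends on the pseudocount, at -2.69 with a pseudocount of 1 and -1.13 with one of 39. Its call was lost without WT replicate 1 (adjusted p = 0.0855), without KO replicate 2 (adjusted p = 0.0503), without the dim filter (adjusted p = 0.0547) and without the intensity trend (adjusted p = 0.0649).

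Dnajb13, a J protein of the radial spokes in the sperm tail, had 336, 318 and 306 in KO testes, against 497, 470.0 and 478 in WT testes. It fell with little spread in either genotype (log2 fold change -0.58 ± 0.068 SE, adjusted p = 0.0038), and it was called under all 16 alternatives. Dnajc5g, a relative of Dnajc5b, had 482, 515 and 398 in KO testes, against 604, 598 and 578 in WT testes (log2 fold change -0.36 ± 0.089 SE, adjusted p = 0.0399). This was the least stable of the calls, made in 9 of 16 alternatives and in 1 of the 6 fits that leave out an array.

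Hspa4l, an HSP110 gene needed for normal male fertility in mice, had 1174, 1161 and 1078 in KO testes, against 1325, 1393 and 1372 in WT testes (log2 fold change -0.26 ± 0.047 SE, adjusted p = 0.0132). The difference was small but larger than the spread of either genotype; the call was lost without WT replicate 1 (adjusted p = 0.0587), and neither the mean over its 5 probe sets (adjusted p = 0.183) nor the fit without the intensity trend (adjusted p = 0.0911) passed. Hspb9, a small heat shock protein gene of the testis, had 977, 936 and 932 in KO testes and 1054, 1116 and 1015 in WT testes. The KO values were the lower ones, but it did not pass (log2 fold change -0.16 ± 0.050 SE, adjusted p = 0.0763). Dnajb7 and Dnajb8 were dim in both genotypes, with KO means of 3.99 and 7.71 and WT means of 9.82 and 6.14, and neither passed without the filter (adjusted p = 0.182 and 0.650).

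**Figure D2:**
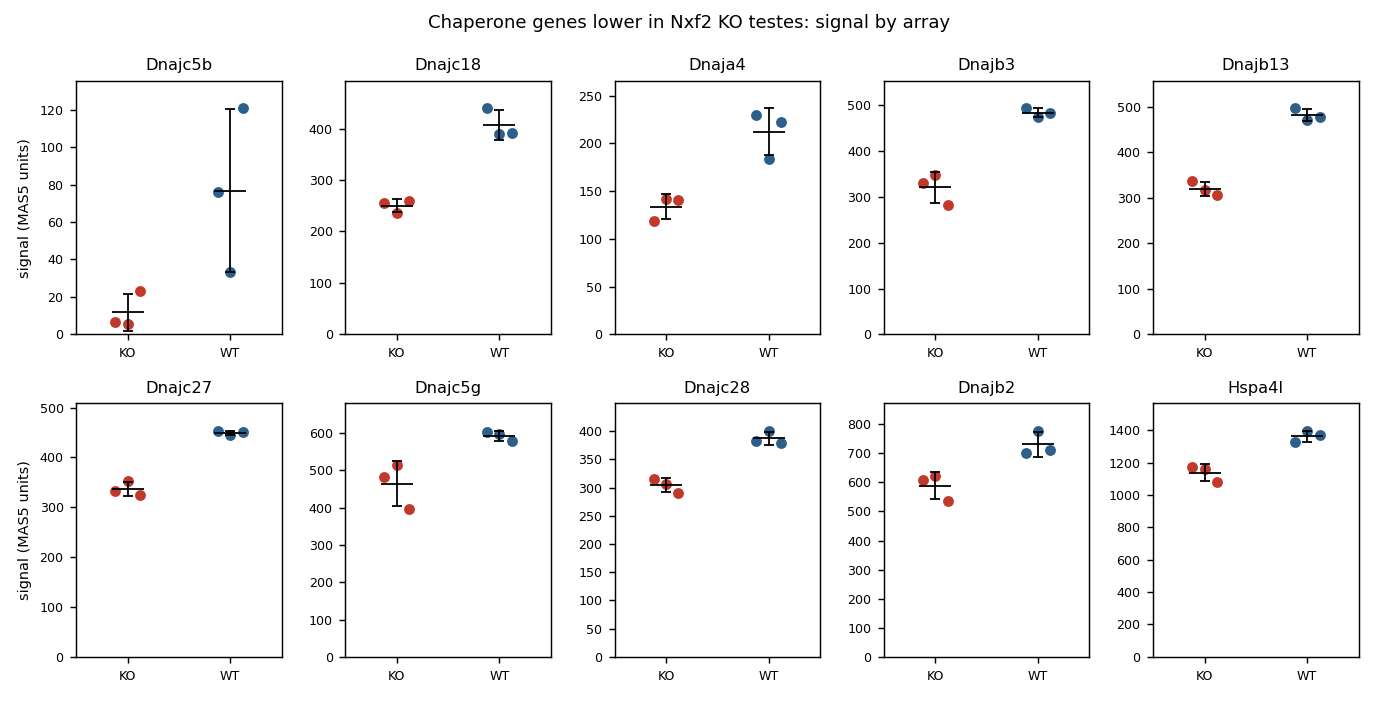
Deposited signal (linear, from 0) of the 10 chaperone genes that fell, with KO arrays in red on the left and WT arrays in blue on the right; points are single arrays, and the bar and whiskers are mean ± SD (n = 3). In each of the 10 panels all KO points lie below all WT points, and the WT points of Dnajc5b spread from 33.5 to 121.

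Among the 25 genes listed as ubiquitous 23 were tested, with a median log2 fold change of -0.026. Of these 4 fell (17.4%, against 7.37% of all genes) and none rose (against 2.98%). Hspa8, the constitutive HSP70 of most cells, had 1803, 1629 and 1601 in KO testes and 1604, 1725 and 1668 in WT testes, and the groups overlapped (log2 fold change 0.0089 ± 0.051 SE, adjusted p = 0.925). Dnaja1 (-0.026), Dnaja2 (-0.040), Dnajc7 (-0.017) and Hspa4, an HSP110 gene (-0.062), also had log2 fold changes near 0. No probe set with a single symbol stands for Hsp90ab1, which was not analysed here.

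The genes that fell in this list had larger changes. Dnajc18 had 255, 236 and 259 in KO testes, against 439, 389 and 391 in WT testes. Its KO and WT arrays were far apart for their spread (1.61-fold lower, log2 fold change -0.69 ± 0.080 SE, adjusted p = 0.0038), and it was called under all 16 alternatives. A second probe set of Dnajc18 pointed the other way, as described below, and in the mean over its probe sets the log2 fold change was -0.27 (adjusted p = 0.0367).

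Dnaja4, a type A J protein gene, had 119, 142 and 141 in KO testes, against 229.7, 184 and 223 in WT testes (log2 fold change -0.64 ± 0.116 SE, adjusted p = 0.0139). Dnajc27, which joins a J domain to a small GTPase, had 333, 352 and 324 in KO testes, against 453, 445 and 452 in WT testes (log2 fold change -0.41 ± 0.066 SE, adjusted p = 0.0088). The 3 WT values of Dnajc27 lay close together, and all KO values lay well below them. Its promoter window, shown above, holds a match to the paired heat shock motif, which 12.8% of all windows hold, and the cAMP response element. A link between these matches and the change in Dnajc27 was not tested.

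Dnajb2, a J protein with ubiquitin-interacting motifs, had 609, 623 and 535 in KO testes, against 701, 778 and 712 in WT testes (log2 fold change -0.31 ± 0.072 SE, adjusted p = 0.0314). Its call was lost when any one of the WT arrays or KO replicate 3 was left out, without the dim filter and without the intensity trend (adjusted p = 0.0984 for the last). Dnajb5 missed the threshold (log2 fold change -0.39 ± 0.106 SE, adjusted p = 0.0544), with 115, 100.5 and 96.2 in KO testes and 135, 139 and 138 in WT testes. It passed downward in 5 of 16 alternatives. Dnajc5, the cysteine string protein of nerve endings and other cells, had the highest log2 fold change of this list at 0.20, with adjusted p = 0.11.

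The heat-inducible genes did not move as a block, and none of the 6 passed the test, where 10.3% of all genes passed in either direction. With so few genes this is near that share. Hspa1b had 423, 466 and 441 in KO testes and 364, 317 and 399.6 in WT testes, and its near-identical copy Hspa1a had 34.9, 31.0 and 38.0 in KO testes and 27.1, 22.1 and 29.3 in WT testes. In both genes all KO values lay above all WT values, with log2 fold changes of 0.30 ± 0.089 SE (adjusted p = 0.0695) and 0.33 ± 0.148 SE (adjusted p = 0.172). The copies are so alike that their probe sets may read each other's RNA, and they may not be separate observations, although each is counted among the 66 genes tested. Hspb1, a small heat shock protein gene, had 322, 275 and 365 in KO testes and 247, 207 and 281 in WT testes, with groups that overlapped (log2 fold change 0.38 ± 0.128 SE, adjusted p = 0.093).

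Dnajb1, the main inducible J protein gene, leaned the other way. It had 863, 852 and 725 in KO testes and 941, 993 and 970.3 in WT testes, and at -0.25 ± 0.068 SE on the log2 scale it was just short of the threshold (adjusted p = 0.0509). Hsph1, the inducible HSP110, had 1031, 940.1 and 929.7 in KO testes and 907, 1026 and 956 in WT testes. Hsp90aa1, the inducible HSP90, had 1857, 1769 and 1685 in KO testes and 1710.0, 1845 and 1779 in WT testes. In both the groups overlapped, and the log2 fold changes were 0.0064 (adjusted p = 0.956) and -0.0068 (adjusted p = 0.938). The median log2 fold change of the 6 inducible genes was 0.15, and it was 0.0064 with Hspa1b alone counted of the near-identical pair. With array weights, and with the replicate number as a block, Hspa1b and Hspb1 passed upward and Dnajb1 downward. Hspa1b and Hspb1 passed in no other alternative. Dnajb1 passed downward in 6 of 16, also with the 60th percentile filter, the mean over its probe sets, quantile normalization and without KO replicate 1.

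**Figure D3:**
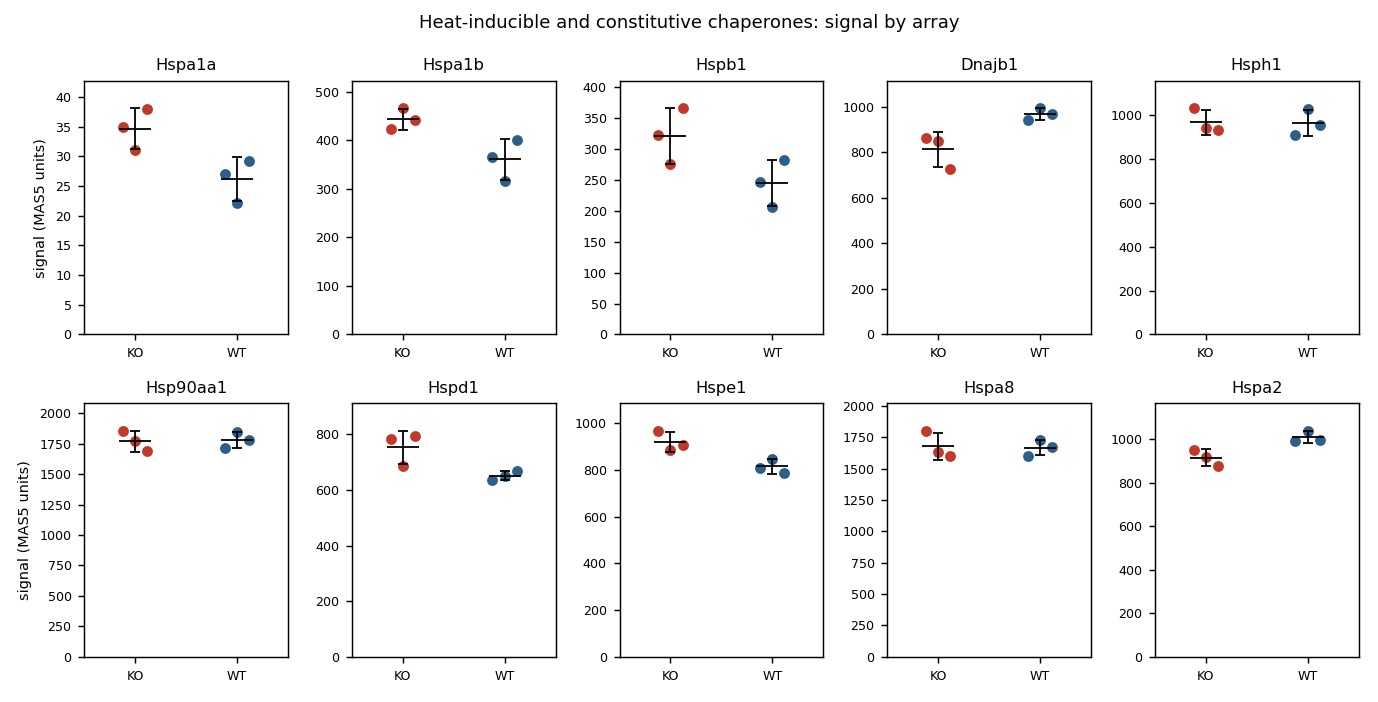
Deposited signal (linear, from 0) of the 6 heat-inducible genes, the chaperonin genes Hspd1 and Hspe1, and the HSP70 genes Hspa8 and Hspa2, with KO arrays in red on the left and WT arrays in blue on the right; points are single arrays, and the bar and whiskers are mean ± SD (n = 3). KO points lie above all WT points for Hspa1a, Hspa1b, Hspd1 and Hspe1, below them for Dnajb1 and Hspa2, and overlap them in the other 4 panels; none of the 10 genes passed the test.

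Of 11 genes listed under the endoplasmic reticulum none passed, where 10.3% of all genes passed in either direction. With so few genes this is near that share. Their log2 fold changes ran from -0.099 to 0.29 with a median of -0.042. The list came from textbook knowledge, and a gene of another list, such as Dnajc18, may also act in this compartment. Hspa5 (BiP), the HSP70 of this compartment, had 1569, 1505 and 1540.0 in KO testes and 1485, 1602 and 1570.4 in WT testes (log2 fold change -0.013, adjusted p = 0.859). Hsp90b1, its HSP90 partner, had a log2 fold change of -0.046 and Dnajb9, a J protein gene of the unfolded protein response, one of -0.098 (adjusted p = 0.315). Dnajb12 was at the upper end (0.29, adjusted p = 0.152).

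Of 9 mitochondrial genes 1 fell (11.1%, against 7.37% of all genes), and the others did not pass. That gene, Dnajc28, had 315, 306 and 291 in KO testes, against 382, 401 and 378 in WT testes (log2 fold change -0.34 ± 0.070 SE, adjusted p = 0.021). Without KO replicate 2, WT replicate 1 or WT replicate 2 its call was lost (adjusted p = 0.0515, 0.1004 and 0.063), as it was in the mean over its probe sets (adjusted p = 0.0595) and without the intensity trend (adjusted p = 0.0555). Hspd1 and Hspe1 encode the mitochondrial chaperonin and its lid. Hspd1 had 782, 686 and 795 in KO testes and 635, 652 and 669 in WT testes. Hspe1 had 967, 883 and 907 in KO testes and 808, 848 and 788 in WT testes. In both neighbours all KO values were above all WT values, by 0.21 ± 0.065 SE and 0.17 ± 0.054 SE on the log2 scale, and neither passed (adjusted p = 0.0798 and 0.0771). With the replicate number as a block Hspd1 passed (adjusted p = 0.0464) and Hspe1 did not (adjusted p = 0.0656). Hspd1 also passed with array weights and without KO replicate 2, and Hspe1 with array weights, quantile normalization and the mean over its probe sets. Hspa9, the mitochondrial HSP70, had 1413, 1362 and 1293 in KO testes and 1346, 1435 and 1332 in WT testes, with overlapping groups (log2 fold change -0.016, adjusted p = 0.849).

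None of the 7 tested genes listed as small heat shock or atypical HSP70 genes of muscle, vessels and other tissues passed. Over all genes 10.3% passed in either direction, and with so few genes this is near that share. Hspb11 is listed here by its symbol, and whether its protein is a chaperone was not tested. The 7 genes ranged from Hspb6, a small heat shock protein gene of smooth muscle (-0.18, adjusted p = 0.33), to Hspb2 (0.32, adjusted p = 0.227). Hspa12b, an atypical HSP70 gene of endothelium, was at 0.29 (adjusted p = 0.217). The HSP-binding genes Hspbp1 and Hspbap1 had log2 fold changes of -0.13 and 0.12, and Dnajc12, in none of the lists, had one of 0.12; none of these 3 passed.

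Separate probe sets of a gene did not always move alike. Of the 42 genes with more than 1 tested probe set, 26 had the same sign in all of them and 16 had both signs. In 5 of these 42 genes the brightest probe set was called, and in none of the 5 was a second probe set called, though in 4 of them (Dnaja4, Dnajc27, Dnajc28 and Hspa4l) all were negative. The fifth was Dnajc18: its other tested probe set had 172, 176 and 163 in KO testes and 157, 143 and 162 in WT testes, so that the KO values were all the higher ones (log2 fold change 0.14 ± 0.094 SE, adjusted p = 0.334).

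In 3 further genes, singled out after their values were seen, a dimmer probe set fell while the brightest did not pass. The dimmer probe set of Dnajb1 had 445, 464 and 453 in KO testes, against 638, 674 and 576 in WT testes (log2 fold change -0.46 ± 0.069 SE, adjusted p = 0.00692). A second probe set of Dnajb4 had 268, 252 and 252 in KO testes, against 388, 329 and 397 in WT testes (-0.51 ± 0.088 SE, adjusted p = 0.0111), where the brightest had a log2 fold change of -0.15. For Dnajb6, a J protein that holds back protein aggregation, the second brightest probe set had 736, 703 and 656 in KO testes, against 888, 909 and 855 in WT testes. Its log2 fold change was -0.34 ± 0.057 SE (adjusted p = 0.0107), and that of the brightest was -0.0033. Over all 139 tested probe sets of the chaperone genes 13 fell (9.35%, against 5.23% of all tested probe sets) and 0 rose (against 2.26%). The sources used here do not say which transcripts these probe sets read.

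**Figure D4:**
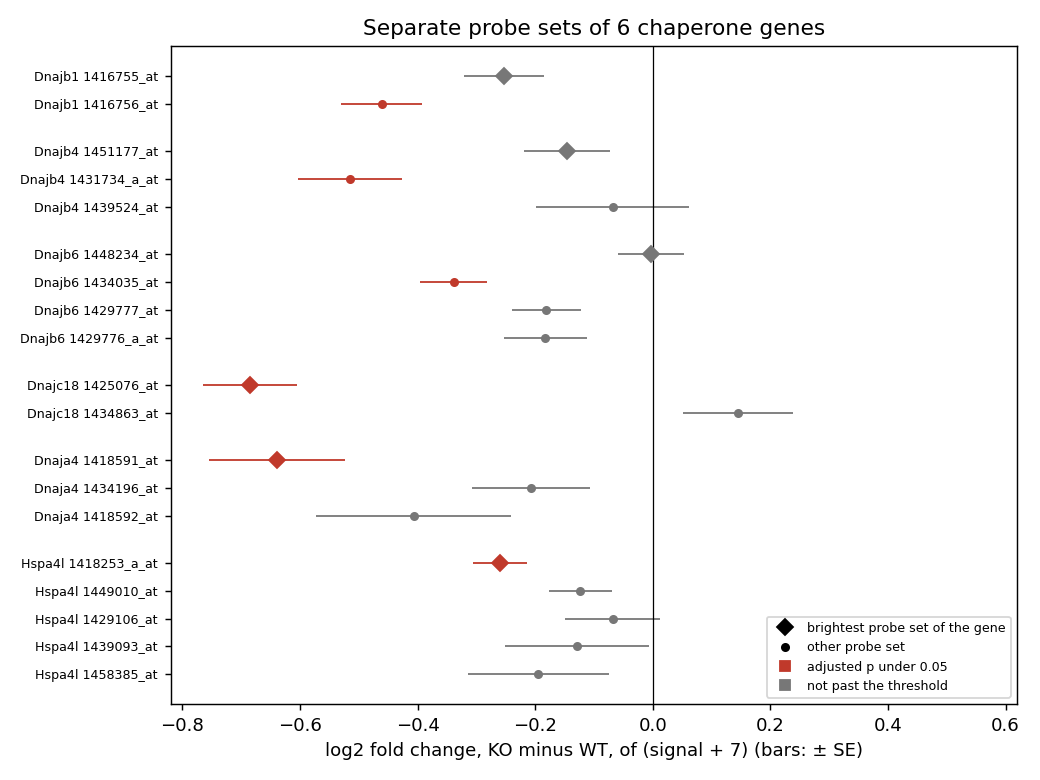
Log2 fold change (KO minus WT, of signal + 7) of every tested probe set of 6 chaperone genes, with bars of ± SE from limma (n = 3 arrays per genotype); diamonds are the brightest probe set of the gene and red marks passed an adjusted p of 0.05. The probe sets of Dnajc18 lie on opposite sides of 0, at -0.69 and 0.14, and those of Dnajb6 spread from -0.34 to -0.0033.

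Of 46 heat shock factor, cochaperone and chaperonin genes outside the prefixes, 41 had a probe set with a single symbol and 38 were tested. Of these 4 fell (10.5%, near the 7.37% of all genes) and 0 rose, with a median log2 fold change of -0.022. Odf1, a small heat shock family protein of the sperm tail, had 17.1, 13.4 and 34.9 in KO testes, against 157, 71.7 and 196 in WT testes (log2 fold change -2.33 ± 0.347 SE, adjusted p = 0.00685). As in Dnajc5b, WT replicate 2 was the lowest WT array and KO replicate 3 the highest KO array. Bag3 had 203, 205 and 192 in KO testes, against 298, 281 and 257 in WT testes (log2 fold change -0.47 ± 0.086 SE, adjusted p = 0.0149). Bag5 had 669, 648 and 603 in KO testes, against 850.4, 721 and 879.9 in WT testes (log2 fold change -0.34 ± 0.078 SE, adjusted p = 0.0296). Both encode cochaperones that promote nucleotide exchange on HSP70. Cct6b, the testis form of a subunit of the cytosolic chaperonin, had 553, 546 and 447 in KO testes, against 646, 695 and 654 in WT testes (log2 fold change -0.37 ± 0.084 SE, adjusted p = 0.0296). Its ubiquitous counterpart Cct6a was at -0.0073 (adjusted p = 0.936), and the difference between these genes was not tested. No tested heat shock factor gene passed: Hsf5, of germ cells, was at -0.17 on the log2 scale (adjusted p = 0.177), and Hsf2 was dim in both genotypes, with means of 16.8 in KO and 18.3 in WT testes.

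Markers of the later germ cell stages fell in full or in part, while no early meiotic marker passed and some spermatogonia markers rose. Odf1 stands in the elongating spermatid list too. All 15 round spermatid markers fell, where over all genes 7.37% fell and 2.98% rose. The marker lists were drawn up with earlier results of these data known, so their shares are no independent evidence. Their summed signal was 4264 to 4603 in KO testes, against 6087 to 6491 in WT testes. Of these 15, Actl7a, Catsper3, Tssk2 and Lyzl4 passed the dim filter through WT, their KO means being 10.8 to 15.1, so a difference was built into their being tested. Of 12 tested elongating spermatid markers 8 fell, with sums of 1454 to 1471 in KO and 2033 to 2987 in WT testes, and Prm2 was dim in both. Tnp1, Tnp2, Prm1 and Odf2 did not pass. The groups overlapped in Tnp1, Tnp2 and Prm1, whose means over all arrays (23.35, 28.83 and 28.58) were close to the dim limit. Whether elongating spermatids were present in either genotype at this age was not tested. The list is named after a stage, and the fall of its genes does not show that WT testes held such cells. Odf2, with means of 933 in KO and 1082 in WT testes, made up the largest part of the sums. Akap4, Capza3 and Hils1 among the 8 likewise had KO means below the dim limit, at 5.43 to 15.7. Of 10 pachytene markers 5 fell, with sums of 7719 to 9035 in KO and 9586 to 10060.0 in WT testes. None of 10 early meiotic markers passed (sums 6488 to 7092 in KO and 6882 to 7308 in WT). In the other direction 5 of 9 spermatogonia markers rose (sums 3086 to 3183 in KO and 2376 to 2489 in WT), as did 2 of 9 Sertoli markers (6004 to 6346 in KO and 5301 to 5622 in WT), 1 of 5 Leydig markers (2069 to 3306 in KO and 1667 to 2101 in WT) and 1 of 6 endothelial markers (236.4 to 319.6 in KO and 213 to 221 in WT). No macrophage marker of 8 (2162 to 3309 in KO and 1479 to 2033 in WT) and no myoid marker of 7 (2924 to 3313 in KO and 2810.0 to 3015 in WT) passed. The part of these cells in the chaperone results was not tested, and in whole testis RNA fewer cells of a type and less RNA per cell cannot be told apart.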

How the data were processed

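The authors deposited linear signal intensities, 1 for each probe set on each array. The submitters' processing notes name MAS5 without a version. After trimming 2% of values at either end, every array had a mean of 150.0. Of 45101 probe sets, 64 controls were left out. Genes were named from the platform annotation, probe sets with several symbols were not used, and chromosomes came from RefSeq (GRCm38.p6), where all 72 genes were found.

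The deposited intensities were analysed as log2(signal + 7), with their 25th percentile, 7, as the pseudocount. The 27022 probe sets with a mean at or above the 40th percentile (20.5) were fitted with limma 3.58.1 in R 4.3.3 (lmFit, eBayes with intensity trend, two-sided, no covariate), with Benjamini-Hochberg adjustment over all of them. On simulated arrays for this comparison (27022 probe sets) 30.2% of 63 changes of 0.5 on the log2 scale, 89.9% of 69 of 1 and 97.1% of 68 of 2 were recovered, with 6 false among 153 calls. Only these probe sets were changed and the noise was drawn independently for each value, while the data gave 2024 calls. The recovery in the data may therefore differ. The number of arrays limits the precision.

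Full values were given for the germ cell and inducible genes, Hspa8, Hspa5, Hspa9, Hspd1, every called gene, and up to 8 called genes of the cochaperone list. Role, cochaperone and marker lists (round and elongating spermatid, pachytene, early meiotic, spermatogonia, Sertoli, Leydig, myoid, macrophage, endothelium) came from textbook knowledge. The genes and lists were chosen with earlier results of these data known. The design text speaks of pairs of WT and KO testes without saying that the replicate numbers mark them, so no block was used in the main comparison. Alternatives were other normalizations, pseudocounts and filters, the replicate number as a block, no trend, array weights, the mean over a gene's probe sets, and leaving out each array.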

Additional observations from a re-analysis of the deposited data

How the results depend on the processing

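The 10 genes that fell kept their sign under all 16 alternatives (15 for Dnajc5b, which the 60th percentile filter leaves out), and so did Hspa1b, Hspb1, Hspd1 and Hspe1 on the higher side. In the 10 all KO values lay below all WT values, so leaving out an array or changing the pseudocount could not reverse the sign. The filters, the trend and the replicate block left the fold changes as they were, and the kept sign is therefore no further support. Leaving out each array in turn gave 2 to 10 genes called lower and 0 to 1 called higher. The medians were -0.045 to -0.011 over the tested genes, -0.041 to -0.0049 for the ubiquitous and 0.13 to 0.19 for the inducible genes. For the germ cell genes the median was -0.395 to -0.305, and it rests on the 2 tested ones alone, Dnajb3 and Hspa2. The lowest count, 2, came without WT replicate 1, and the 1 higher call, Hspd1, without KO replicate 2. Array weights gave 16 lower and 6 higher, with medians of -0.00296 over the tested and 0.012 over the ubiquitous genes, but called 26.7% of all probe sets, against 7.49%. Without the intensity trend 5 were called lower. Quantile normalization gave 1 higher call (Hspe1), and so did the mean over a gene's probe sets, with a ubiquitous median of 0.0019. Median centring moved the medians to -0.085 for the tested and -0.071 for the ubiquitous genes. At the 60th percentile filter, which leaves out dim genes, the inducible median was 0.0064, as it was with Hspa1b alone counted of Hspa1a and Hspa1b, an alternative chosen after seeing the data. The causes of the other shifts were not tested. With the replicate block 13 were called lower and 3 higher, and 4503 probe sets in all (16.7%, against 7.49%). The design text speaks of pairs without tying them to the numbers. Same-numbered KO and WT arrays deviated together with correlations of 0.0793, 0.457 and 0.266, and each KO array correlated best with the WT array of its number. Arrays of unlike number had correlations of -0.334 to 0.112, the highest for WT replicate 1 and KO replicate 3. These values do not settle whether the numbers mark pairs, and the block was kept as an alternative. Signals below 20.5 limit what can be said of Hspa1l, Dnajb7, Dnajb8, Dnajc6, Dnajc22 and Hspb3.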

Other observations

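Probe sets assigned to both Dnajc19, a J protein gene of the mitochondrial import motor, and its pseudogene could not be given to a single gene and stand outside the comparisons above. The brightest of the 3 had signals of 407, 381 and 455 in KO testes and 369, 316 and 385 in WT testes, and did not pass (log2 fold change 0.21 ± 0.094 SE, adjusted p = 0.167, limma). A second chaperonin probe set, the dimmer one of Hspe1, had 507, 484 and 592 in KO testes and 415, 439 and 424 in WT testes. Its log2 fold change of 0.30 ± 0.080 SE (adjusted p = 0.0508) had the same sign as that of the brighter Hspe1 probe set and missed the threshold as well.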
